A study of Sus scrofa with 3 samples.

Results

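The inter-alpha-trypsin inhibitor family was taken as 5 genes: AMBP, which encodes the light chain bikunin, and ITIH1, ITIH2, ITIH3 and ITIH4, which encode heavy chains. They were matched by Ensembl gene ID and are 5 of the 25322 gene IDs counted, all of them among the 13224 expressed (a scaled CPM of at least 1 in at least 1 library). The data are read counts from liver RNA of 3 male pigs at postnatal day 90, with 1 library each from an Enshi black pig (a Chinese local breed), a Large White pig (a European commercial breed) and a Chinese wild boar. The labels name no treatment and no genetic modification for any group. The labels say nothing of pooling. Taken as 1 animal per library, breed, animal and library cannot be told apart and no value has a replicate check.

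Bikunin is a protease inhibitor with Kunitz domains. It is made in the hepatocyte as 1 precursor with alpha-1-microglobulin, a small lipocalin, and the precursor is cleaved on its way out of the cell. Heavy chains are joined to bikunin through its chondroitin sulfate chain: bikunin with the chains of ITIH1 and ITIH2 forms inter-alpha-inhibitor, and bikunin with the chain of ITIH3 forms pre-alpha-inhibitor. In plasma and tissue fluid the heavy chains can be handed over to hyaluronan by the protein TSG-6. The ITIH4 chain is not joined to bikunin and circulates alone, and in pigs it is known as the major acute phase protein pig-MAP.

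Depth was alike in the 3 libraries, with 20654571, 19982627 and 20215871 gene counts for Enshi black, Large White and Chinese wild boar, the order used here for every set of 3 values by library. Levels are given as CPM, a gene's reads scaled to a common library total, with totals adjusted by TMM so that most genes match. The 9 hepatocyte markers with a matched ID summed to 97341, 58631 and 83373 CPM in that order. Albumin (ALB) alone gave 66555, 25234 and 53772 of these, and the 8 others, summed apart after the values were seen, 30786, 33397.5 and 29601. The 8 expressed markers had a median log2 fold of -0.55 for Enshi black against Large White, with ALB past the size rule defined below as higher and the fibrinogen chain FGB as lower. The apolipoprotein gene APOA1, matched but under the level of 1 CPM set for expressed genes, had only 2, 0 and 2 counts. Whether reads of APOA1 were missed in the counting was not tested. APOA1 is among the 8 others summed without ALB, but not among the 8 expressed markers. Because the tissue was sequenced in bulk, fewer cells of a type and less RNA per cell cannot be told apart.

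The light chain precursor AMBP was the most abundant of the 5 by reads in each library, at 5282, 7315 and 5150 CPM. It ranked 18, 13 and 21 among all gene IDs. Large White was the highest library, and the other two lay close together: Enshi black was 1.03-fold of Chinese wild boar (1.02 to 1.03). Values in parentheses after a fold bound its 95% exact conditional binomial interval, which holds only the error of counting reads. Large White exceeded Enshi black by 1.38-fold (1.37 to 1.40) and Chinese wild boar by 1.42-fold (1.41 to 1.43).

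ITIH1, a heavy chain of inter-alpha-inhibitor, had 3801, 4538 and 3472 CPM. Its libraries stood in the order Large White, Enshi black, Chinese wild boar, the same order as for AMBP. The widest gap, Large White over Chinese wild boar, was 1.31-fold (1.29 to 1.32), and Enshi black was 1.09-fold of Chinese wild boar (1.08 to 1.11). AMBP and ITIH1 were therefore the members whose levels varied least between libraries.

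ITIH2, the other heavy chain of inter-alpha-inhibitor, had 1105, 552 and 644 CPM. Enshi black was the high library for this gene, and Large White, highest for AMBP and ITIH1, was the lowest. The fold of Enshi black over Large White was 2.002 (1.96 to 2.05), so the interval reached just under 2. Enshi black was 1.72-fold of Chinese wild boar (1.68 to 1.75), and Chinese wild boar 1.17-fold of Large White (1.14 to 1.20).

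ITIH3, the heavy chain of pre-alpha-inhibitor, had 3353, 2658 and 1756 CPM. Enshi black was again the high library, but Chinese wild boar, not Large White, was the low one. Enshi black was 1.91-fold of Chinese wild boar (1.89 to 1.93) and 1.26-fold of Large White (1.25 to 1.28). Large White exceeded Chinese wild boar by 1.51-fold (1.49 to 1.53).

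ITIH4, the pig acute phase chain, had 2056, 6416 and 3545 CPM, from 44335, 125750 and 69975 counts. It ranked 46, 19 and 30 among gene IDs. Large White was the high library and Enshi black the low one, opposite to ITIH2 and with a wider range than any other member. The Enshi black level was 3.12-fold lower than in Large White (3.09 to 3.155). It was also under the Chinese wild boar level, by 1.72-fold (1.70 to 1.74), and Large White exceeded Chinese wild boar by 1.81-fold (1.79 to 1.83).

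**Figure D1:**
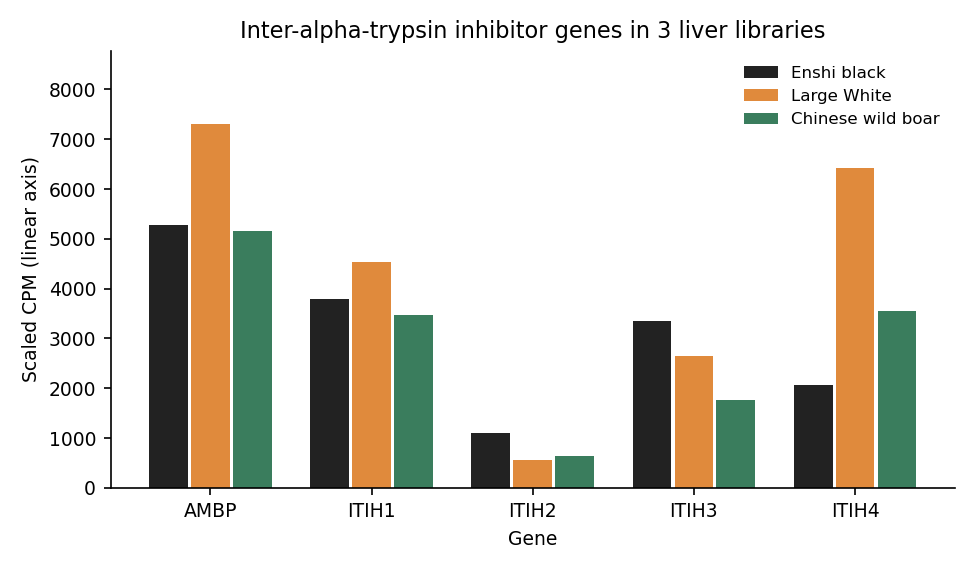
Scaled CPM (vertical axis, linear) of the 5 genes in each of the 3 liver libraries, 1 bar per library and without replicates. Bars are to be compared within a gene, since reads also depend on transcript length: ITIH4 stands at 6416 CPM in Large White and 2056 in Enshi black, while ITIH2 stands at 552 and 1105.

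A gene was counted as past the size rule when its whole interval lay at 2 or above, or at 0.5 or below. In Enshi black against Large White 1 of the 5 genes passed, ITIH4 as lower, and none passed as higher. Across all 13224 expressed genes 8.36% passed as lower and 4.73% as higher in that pair. Among the 242 gene IDs with a mean of at least 500 CPM, a level all 5 members reach, the shares were 10.3% and 5.79%. A count of 1 in 5 is therefore near the background, and by itself it does not set the family apart. ITIH4 no longer passed when a coefficient of variation of 0.2 between animals was assumed (0.32, interval 0.184 to 0.558), and ITIH2 passed as higher in this pair when scaled by total counts alone (2.13-fold).

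None of the 5 passed in the other pairs, although ITIH3 did in Enshi black against Chinese wild boar when scaled by total counts alone (2.04-fold). In Chinese wild boar against Large White, 2.99% of expressed genes passed as higher and 3.71% as lower, and 7.44% and 4.13% of the abundant gene IDs. In Enshi black against Chinese wild boar, the shares were 3.98% higher and 7.17% lower over expressed genes and 5.37% and 10.7% over abundant ones. The 3 pairs share libraries, so a high or low library enters 2 of them.

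Placed among the 242 abundant gene IDs, the ITIH4 fold of Enshi black against Large White was matched or exceeded in size, in either direction, by 13 of them, ITIH4 itself included (5.37%). For ITIH2 in that pair 43 did (17.8%), and for AMBP 123 (50.8%). In Enshi black against Chinese wild boar ITIH3 was matched or exceeded by 43 (17.8%) and AMBP by 232 (95.9%).

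**Figure D2:**
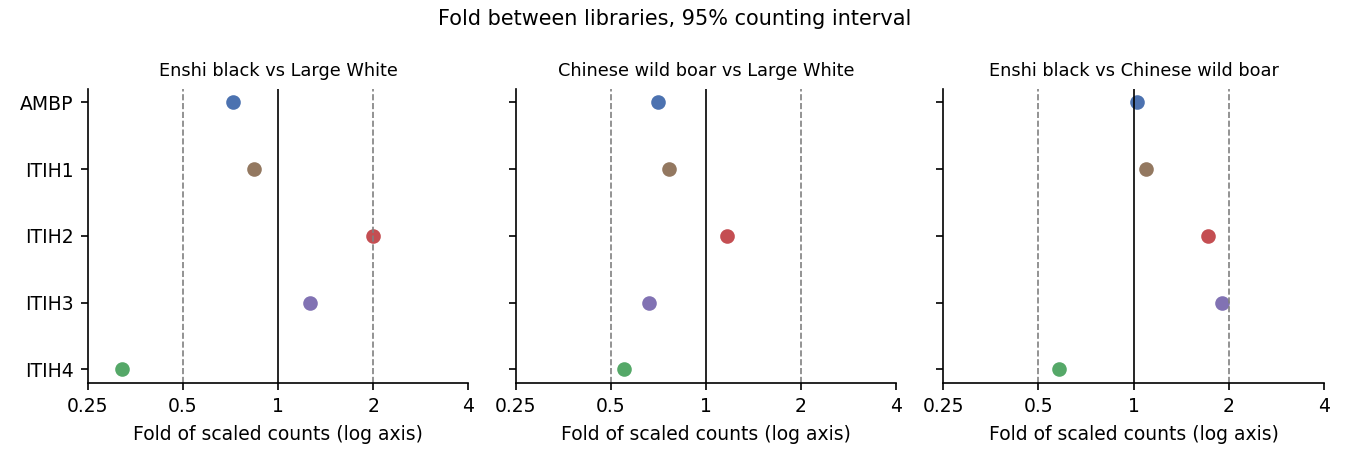
Fold of scaled counts (horizontal log axis) for the 5 genes in each pair of libraries, with the 95% counting interval as a bar mostly hidden by its point. Dashed lines mark folds of 0.5 and 2. ITIH4 lies beyond 0.5 in Enshi black against Large White, and ITIH2 sits on the line at 2 there.

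**Figure D3:**
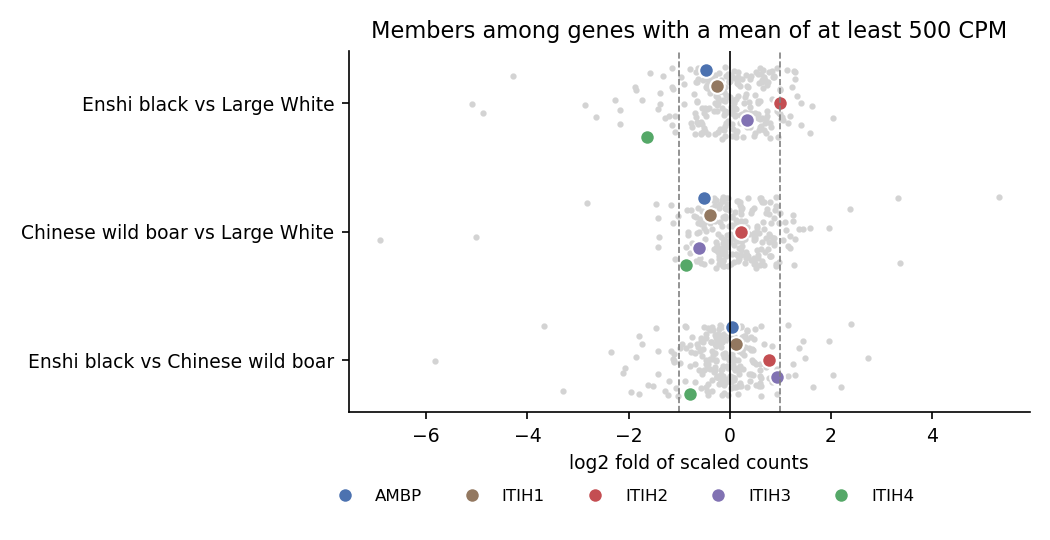
log2 fold of scaled counts (horizontal axis) of the 242 gene IDs with a mean of at least 500 CPM (grey points, spread vertically at random) and the 5 family genes (coloured points, set apart vertically) in each pair of libraries. Dashed lines mark log2 folds of -1 and 1. The members lie within the grey cloud, with ITIH4 at -1.64 toward its edge in Enshi black against Large White.

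The family's summed reads made up 1.63%, 2.11% and 1.42% of all gene counts, with 95% Clopper-Pearson bounds of 1.623% and 1.634%, 2.1003% and 2.113%, and 1.417% and 1.428%. Within that sum the light chain precursor held a nearly constant part: AMBP took 33.9%, 34.1% and 35.4% of family reads. ITIH1 took 24.4%, 21.1% and 23.8%. The mix differed mainly in the 3 other heavy chains. ITIH4 took 13.2%, 29.9% and 24.3%, ITIH3 took 21.5%, 12.4% and 12.1%, and ITIH2 took 7.08%, 2.57% and 4.42%. These are shares of reads, not of molecules, because transcript lengths were not used here.

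**Figure D4:**
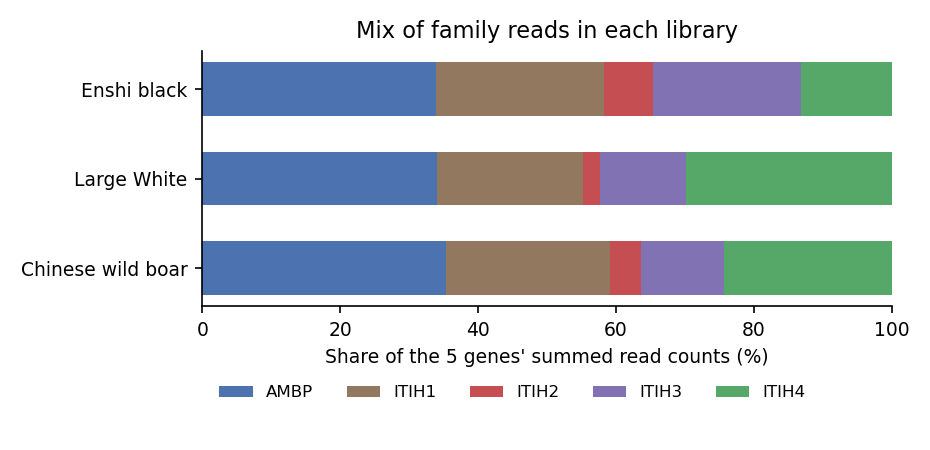
Share of the 5 genes' summed read counts (horizontal axis, percent) taken by each gene in each library. The AMBP segment is 33.9% to 35.4% wide in all 3 libraries, while the ITIH4 segment is 13.2%, 29.9% and 24.3%.

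A ratio of 2 chains within a library does not depend on library size or on the scaling. It carries the lengths of both transcripts, which cancel when the same ratio is compared between libraries. All 10 ratios among the 5 genes were computed in each library and compared in the 3 pairs of libraries, with a 95% normal interval on the log scale from the 4 counts. The 10 ratios rest on only 5 genes and are not independent of each other.

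The light chain precursor kept pace with ITIH1. AMBP reads per ITIH1 read numbered 1.39, 1.61 and 1.48. The largest difference between libraries in that ratio was 1.16-fold (1.15 to 1.17), Large White over Enshi black. No other pair of the 5 genes stayed within 1.5-fold over all 3 libraries.

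The widest differences between libraries were in the ratios of ITIH2 and of ITIH3 to ITIH4. ITIH3 reads per ITIH4 read numbered 1.63, 0.414 and 0.495. ITIH3 reads thus outnumbered ITIH4 reads in Enshi black alone. The Enshi black ratio was 3.94-fold that of Large White (3.88 to 4.0) and 3.29-fold that of Chinese wild boar (3.24 to 3.35), both past the size rule. Between Chinese wild boar and Large White it differed by 1.20-fold (1.18 to 1.22).

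ITIH2 reads per ITIH4 read numbered 0.537, 0.0860 and 0.182. Of the 10 ratios this one passed the size rule in every pair of libraries. The Enshi black ratio was 6.25-fold that of Large White (6.09 to 6.41) and 2.96-fold that of Chinese wild boar (2.89 to 3.03), and the Chinese wild boar ratio was 2.11-fold that of Large White (2.05 to 2.17). The 3 libraries were thus spread out in the order Enshi black, Chinese wild boar, Large White.

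ITIH1 reads per ITIH4 read numbered 1.85, 0.707 and 0.979. The Enshi black ratio was 2.61-fold that of Large White (2.58 to 2.65). AMBP reads per ITIH4 read numbered 2.57, 1.14 and 1.45, with Enshi black 2.25-fold above Large White (2.22 to 2.28). For both ratios Chinese wild boar lay between the other libraries and nearer to Large White.

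ITIH2 also shifted against its partners in inter-alpha-inhibitor. ITIH1 reads per ITIH2 read numbered 3.44, 8.23 and 5.39, with Large White 2.39-fold above Enshi black (2.33 to 2.45). AMBP reads per ITIH2 read numbered 4.78, 13.3 and 8.0, with Large White 2.77-fold above Enshi black (2.71 to 2.84). ITIH2 was thus lowest against both partners in the Large White library.

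Against the light chain precursor, ITIH3 set Enshi black apart from both other libraries without passing the size rule. AMBP reads per ITIH3 read numbered 1.58, 2.75 and 2.93. The ratio in Large White was 1.75 times that in Enshi black (1.72 to 1.77), and in Chinese wild boar 1.86 times (1.83 to 1.89). The summed reads of ITIH1, ITIH2 and ITIH3, the chains that join bikunin, came to 1.56, 1.06 and 1.14 per AMBP read. Enshi black had 1.48 times the summed ratio of Large White (1.46 to 1.49) and 1.37 times that of Chinese wild boar (1.36 to 1.39).

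In all, 6 of the 10 chain ratios passed in Enshi black against Large White, 2 in Enshi black against Chinese wild boar and 1 in Chinese wild boar against Large White. Over all 29161 pairs of the abundant gene IDs, 32.3%, 28.5% and 26.6% passed in the same pairs of libraries. The 6 in the first pair were the 4 ratios with ITIH4 and the ratios of AMBP and of ITIH1 to ITIH2. The count exceeded the background share in that pair only. Each of the 6 ratios there holds ITIH4 or ITIH2, the members of widest fold in that pair. They therefore restate those folds and are not 6 separate results. With an assumed coefficient of variation of 0.2 for each gene between animals, 1 ratio still passed, ITIH2 to ITIH4 in Enshi black against Large White, and with 0.4 none did.

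**Figure D5:**
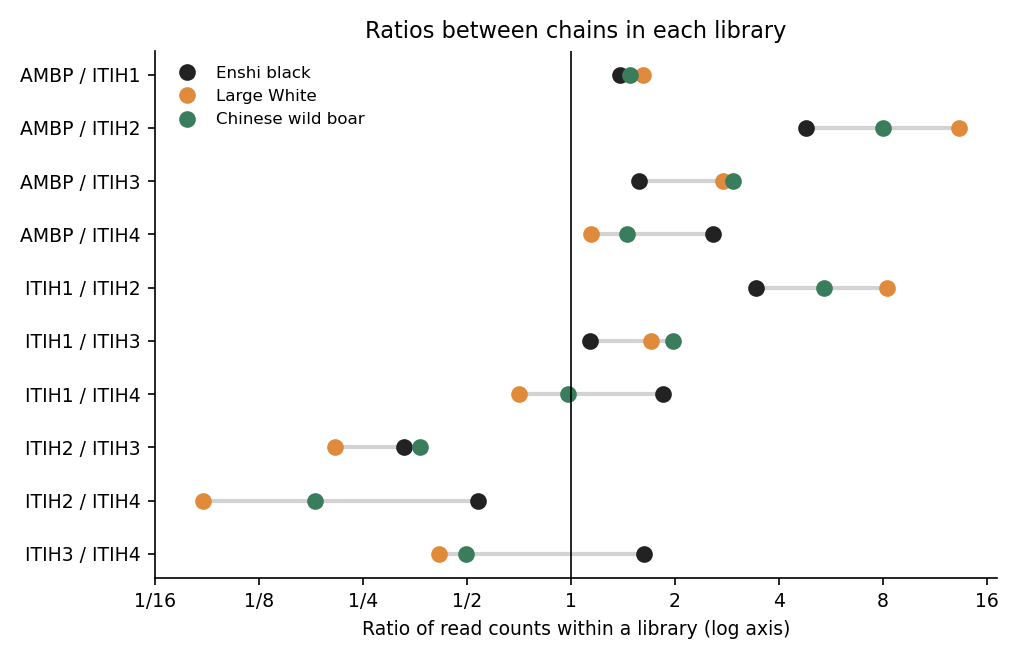
Ratio of read counts of 2 family genes within each library (horizontal log axis), 1 line per pair of genes and 1 point per library. The 3 points of AMBP / ITIH1 lie between 1.39 and 1.61, while those of ITIH2 / ITIH4 run from 0.0860 in Large White to 0.537 in Enshi black.

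ITIH1, ITIH3 and ITIH4 follow each other directly in the RefSeq gene order of assembly Sscrofa11.1. Direct neighbours thus include ITIH3, highest in Enshi black, and ITIH4, lowest there. The 5 protein-coding genes on each side of each member gave 30 other genes, of which 20 had a matched ID and 19 were expressed. Of the 19, none passed the size rule in Enshi black against Large White and 2 passed as lower in Chinese wild boar against Large White. In Enshi black against Chinese wild boar 2 passed as higher and 1 as lower. Over all expressed genes the shares in these pairs were 4.73% higher and 8.36% lower, 2.99% and 3.71%, and 3.98% and 7.17%. Around the ITIH1, ITIH3 and ITIH4 group, none of GNL3, GLT8D1, SPCS1, NEK4, SFMBT1, PRKCD and TKT passed in any pair. SPCS1, a signal peptidase subunit, had 163, 79.7 and 120 CPM. The passing neighbours were PFKFB3, a regulator of glycolysis, and PRKCQ beside ITIH2, and KIF12 and AKNA beside AMBP. PFKFB3 had 74.1, 44.7 and 5.17 CPM, a pattern unlike that of ITIH2.

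ITIH5, a further heavy chain gene next to ITIH2, had 35.4, 18.2 and 22.7 CPM. Its libraries stood in the same order as those of ITIH2, with Enshi black 1.94-fold of Large White (1.71 to 2.21) and 1.56-fold of Chinese wild boar (1.39 to 1.76). It did not pass the size rule in any pair. ITIH6 was not matched to an ID.

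The genes most like each member over the 3 libraries were sought among 986 other genes with a symbol and a mean of at least 100 CPM. Likeness was the Euclidean distance between log2 profiles centred on their own mean, over 3 points only. Nearest to AMBP were OTC, a urea cycle enzyme (distance 0.012), and the matrix protein gene FBLN1 (0.017). Nearest to ITIH1 were PROC, the gene of anticoagulant protein C (0.013), and the cytoskeletal SEPTIN9 (0.027). ITIH1 was 42nd in order of likeness to AMBP, at a distance of 0.15, and no other member was within 0.5 of either.

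ITIH2 was most like ALAS1, the first enzyme of haem synthesis (0.049), with 979, 494 and 550 CPM, and TMSB4X, an actin-binding peptide gene (0.060). ITIH3 was most like the nucleolar NPM1 (0.16) and the intermediate filament gene VIM (0.17). ITIH4 was most like IKBKG, a subunit of the kinase complex that activates NF-kappaB (0.13), and AGT, which encodes angiotensinogen (0.16). AGT had 545, 1635 and 1053 CPM, with Large White highest and Enshi black lowest as for ITIH4. The most distant members were ITIH2 and ITIH4, at 1.88.

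Of the other acute phase genes, 8 of 17 listed had a matched ID, and all 8 were expressed. In Enshi black against Large White 1 passed as higher and 2 as lower, with a median log2 fold of -0.03 against 0.01 over all expressed genes. Of all expressed genes 4.73% passed as higher and 8.36% as lower in that pair. C-reactive protein (CRP) had 417, 2624 and 1199 CPM, the same order of libraries as ITIH4, and was lower in Enshi black than in both others and lower in Chinese wild boar than in Large White. The fibrinogen chain FGB had 605, 2732 and 2351 CPM, also in the order of ITIH4, and was lower in Enshi black than in both others. Large White exceeded Chinese wild boar for FGB by only 1.16-fold (1.15 to 1.18). LCN2, a lipocalin released in inflammation, went the other way, with 12.1, 2.14 and 3.39 CPM, and was higher in Enshi black than in both others.

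The acute phase genes other than CRP and FGB did not share the order seen for ITIH4. HPX, which binds haem, had 6393, 7125 and 7181 CPM, LBP, which binds bacterial lipopolysaccharide, 531, 568 and 466, and FGG 1176, 990.3 and 1334. Complement C3 was lower in Chinese wild boar than in both others, at 17279.6, 16759 and 6343.5 CPM. In Chinese wild boar against Large White 2 of the 8 passed as lower and none as higher (median -0.25 against 0.01). In Enshi black against Chinese wild boar 2 passed as higher and 2 as lower (median 0.01 against 3.80e-05). Over all expressed genes the shares were 2.99% higher and 3.71% lower in the former pair, and 3.98% and 7.17% in the latter.

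The list of negative acute phase genes, mostly plasma proteins known to fall in that response, had 8 expressed members. ALB, the gene of albumin, passed as higher in Enshi black against Large White, with list medians of 0.46, 0.49 and -0.20 over the pairs Enshi black against Large White, Chinese wild boar against Large White and Enshi black against Chinese wild boar. List medians below are given in that order, beside the medians over all expressed genes above. Genes past the rule in this list and those below are likewise to be read beside the shares over all expressed genes above. ALB and FETUB, a fetuin, passed as higher in Chinese wild boar against Large White, and TAT, a tyrosine-degrading enzyme that hepatocytes make under glucocorticoids, as lower in Enshi black against Chinese wild boar. Of 14 expressed genes of IL-6 and glucocorticoid signalling, NFKB1 passed as lower in Enshi black against Large White, with 2.46, 8.88 and 5.02 CPM. FKBP5, a glucocorticoid-induced chaperone with 67.0, 47.7 and 148 CPM, was higher in Chinese wild boar than in both others. The medians of that list were -0.09, -0.11 and -0.02.

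HNF4A, a nuclear receptor of hepatocyte identity, had 746, 586 and 724 CPM.

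Of 2 lists of genes that make or process the family's proteins, the counts were near the background shares given above. None of 6 expressed genes for precursor cleavage and gamma-carboxylation passed in any pair (medians -0.01, -0.03 and -0.30). The protease gene FURIN had 432, 589 and 518 CPM and GGCX, the vitamin K dependent carboxylase, 112, 123 and 142. Of 15 expressed genes for chondroitin sulfate synthesis only CHST13, a sulfotransferase, passed, as 4.07-fold higher in Chinese wild boar than in Large White (3.75 to 4.42), with 80.4, 37.0 and 151 CPM. The medians of that list were -0.01, -0.21 and 0.18.

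Of 17 listed genes for heavy chain transfer and hyaluronan, 13 had a matched ID and 9 were expressed. TNFAIP6, the gene of TSG-6, had 0 counts in all 3 libraries, and 0 counts allow up to 3 counts, or 0.139, 0.153 and 0.152 CPM, by counting error. HMMR, which encodes a hyaluronan-binding spindle protein, passed as higher for Enshi black against Large White, with 11.1, 4.08 and 6.74 CPM. VCAN, a matrix proteoglycan that binds hyaluronan, was lower in Chinese wild boar than in Large White, with 4.41, 7.09 and 1.67 CPM. The list medians were 0.20, 0.44 and -0.03.

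Other plasma protease inhibitors and proteases followed. None of 8 expressed serpins and macroglobulins passed in any pair (medians 0.41, 0.06 and 0.23). SERPING1, the inhibitor of complement C1, had 4340, 5025 and 3331 CPM and the broad protease trap A2M 7006, 5229 and 4254. None of 9 plasma serine proteases passed (medians -0.32, -0.13 and -0.16). Plasminogen (PLG), whose active form is inhibited by bikunin, had 7831, 7322 and 6363 CPM. Among 5 expressed genes with Kunitz domains (medians 0.02, -0.32 and 0.20) SPINT1 was lower in Enshi black than in both others, from only 9, 83 and 47 counts, and APP, the amyloid precursor gene, was higher in Enshi black than in Chinese wild boar, with 328, 204 and 146 CPM. Among 4 expressed lipocalins (medians 0.47, 0.61 and -0.25) the complement chain C8G was lower in Enshi black than in Large White, with 687, 1456 and 823 CPM.

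Markers of other liver cells differed between these libraries as well. The 6 Kupffer cell and macrophage markers summed to 1502, 1914 and 1735 CPM, with Large White highest and Enshi black lowest as for ITIH4. CD14, at 862, 1129 and 1059 CPM, and MARCO, at 21.4, 84.8 and 29.0, shared that order. So did CSF1R, at 15.6, 111 and 55.8 CPM, and LYZ, at 1.16, 7.70 and 3.29. C1QA, at 549, 520 and 518 CPM, and CD68, at 53.9, 61.0 and 70.9, did not share it. In Enshi black against Large White 3 of the 6 (MARCO, CSF1R and LYZ) passed as lower, against 8.36% of all expressed genes. The 2 matched neutrophil markers summed to 6.31, 34.4 and 5.27 CPM. The 6 stellate cell and fibroblast markers summed to 1009, 309.96 and 541 CPM, the order of libraries seen for ITIH2. Of these sums COL3A1 alone gave 838, 232 and 384 CPM. COL1A2, at 114, 32.1 and 89.0 CPM, and DCN, at 26.2, 7.35 and 10.8, stood in the same order as the sums. DES, at 14.2, 20.9 and 37.9 CPM, and PDGFRB, at 15.9, 17.9 and 18.7, were lowest in Enshi black. In this list 3 markers (COL3A1, COL1A2 and DCN) passed as higher in Enshi black against Large White, against 4.73% of all expressed genes. The fibroblast marker LUM had 0 counts in Large White. The 4 endothelial markers summed to 501, 738 and 387 CPM, of which STAB1 alone gave 186, 498 and 169. KDR, at 169, 115 and 61.9 CPM, and PECAM1, at 111, 95.3 and 108, were highest in Enshi black. LYVE1, at 35.1, 29.4 and 48.6 CPM, was highest in Chinese wild boar. The 4 T and NK cell markers summed to 83.4, 83.8 and 33.9 CPM. The 3 B and plasma cell markers summed to 10.99, 2.35 and 1.72 CPM. The 2 cholangiocyte markers summed to 5.84, 5.77 and 5.32 CPM and the 2 erythroid markers to 44.3, 105 and 186. Of the erythroid sums HBB gave 36.5, 102 and 183 CPM, while ALAS2, at 7.74, 2.91 and 3.44, was highest in Enshi black. Of the non-hepatocyte lists no other matched marker was at 0 in any library. The part of these cells in the family's differences was not tested.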

How the data were processed

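The authors deposited 1 table of whole-number read counts per Ensembl gene ID for each library, not normalized. Per the submitters' processing notes, TopHat2 2.1.0, HTSeq 0.6.1 and edgeR 3.16.3 were used with build Sscrofa10.2. The sources used here do not give the strand setting, the annotation release or how reads with several alignments were treated, so reads shared by overlapping genes may be missing. The 5 rows that name no gene stayed out. Reads with no feature made up 19.0%, 22.0% and 18.9% of those tabulated (Enshi black, Large White, Chinese wild boar) and ambiguous reads 1.89%, 2.18% and 2.49%.

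Symbols came from a table of gene IDs. Counts were scaled with TMM factors (edgeR 4.0.16, R 4.3.3) of 1.04, 0.981 and 0.976. Folds, exact conditional binomial intervals, ratios and shares were computed in Python 3.11.15 (scipy 1.17.1, pandas 2.3.3, numpy 2.4.6, with matplotlib 3.10.9 for figures). List medians use a prior count of 2. With 1 library per breed there is no p-value, and intervals cover counting error only. The fold intervals and the rule on size were tested on simulated counts with known folds and counting error only. That test says nothing of the spread between animals.

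The members and lists were chosen with earlier results of these data known. From each list were named up to 3 genes past the size rule by the interval bound farthest from 1 or, where none passed, the 2 most abundant. For each member the 2 genes of most like pattern were named, as were its neighbours with a symbol that passed or lay beside ITIH1, ITIH3 and ITIH4. HPX, LBP, FGG, C3, HNF4A, APOA1, TNFAIP6, LUM, C1QA, CD68, DES and PDGFRB, and the values of SPCS1 and PFKFB3, were chosen after they were seen. So were CD14, PECAM1, LYVE1 and ALAS2. The background over pairs of genes and the level of 500 CPM were also set after the data were seen. Alternatives were DESeq2 1.42.0 size factors, total counts, other filters and bounds, a stricter interval, and an animal-to-animal coefficient of variation assumed at 0.2 or 0.4. The counts of the hepatocyte transcription factor list are not reported here.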

Additional observations from a re-analysis of the deposited data

How the results depend on the processing

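Of 105 combinations of the 15 member folds with 7 alternatives, 95 kept their direction and their side of the size rule, 3 no longer passed, 7 newly passed and none reversed. The ITIH4 fold of Enshi black against Large White (0.32) no longer passed with a bound of 4 or with an assumed coefficient of variation between animals of 0.2 (interval 0.184 to 0.558) or 0.4 (0.106 to 0.971). With total counts, ITIH2 in Enshi black against Large White (2.13) and ITIH3 in Enshi black against Chinese wild boar (2.04) newly passed. With a bound of 1.5 the folds of ITIH2 (2.002) in Enshi black against Large White, of ITIH4 in Chinese wild boar against Large White (0.552), and of ITIH2 (1.72), ITIH3 (1.91) and ITIH4 (0.58) in Enshi black against Chinese wild boar did too. Total counts gave median log2 folds of all expressed genes of 0.10, 0.0038 and 0.10 over the 3 pairs.

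In what follows, pairs are in the order Enshi black against Large White, Chinese wild boar against Large White, Enshi black against Chinese wild boar. Chain ratios past the rule numbered 1, 0 and 0 of 10 with a coefficient of 0.2 (the remaining one was ITIH2 to ITIH4), 0 in each pair with 0.4, and 1, 0 and 0 with a bound of 4. With a bound of 1.5 they numbered 3 in the second pair and 8 in the third. With heavy chains alone in the total, shares of ITIH1, ITIH2, ITIH3 and ITIH4 were 36.8%, 10.7%, 32.5% and 19.9% in Enshi black, 32.0%, 3.90%, 18.8% and 45.3% in Large White, and 36.9%, 6.84%, 18.6% and 37.6% in Chinese wild boar.

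Genes past the rule in the 3 pairs are given as higher and lower. As reported they numbered 626 and 1105, 396 and 491, and 526 and 948. With the stricter interval they numbered 408 and 815, 283 and 304, and 311 and 735. With a near bound of 1.5 they numbered 1543 and 1954, 999 and 1120, and 1292 and 1688. With a near bound of 4 they numbered 149 and 443, 88 and 113, and 116 and 394. With an assumed coefficient of variation of 0.2 they numbered 278 and 658, 163 and 223, and 249 and 578. With an assumed coefficient of variation of 0.4 they numbered 130 and 405, 76 and 102, and 114 and 368. With a filter of 10 CPM they numbered 354 and 634, 278 and 275, and 268 and 552.

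The alternative of counts per kb of coding sequence was not run, since no lengths were used here. No paired analysis was possible because each breed has 1 library. Depth does not limit the members, whose smallest count was 10813, but without a second animal per breed the spread between animals is unknown.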
